A study of Mus musculus with 6 samples.

Results

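Lymphotoxin and tumour necrosis factor genes were followed in cultured group 2 innate lymphoid cells (ILC2s), tissue lymphocytes without antigen receptors that are known for type 2 cytokines such as IL-5 and IL-13. The set holds 6 of the 18122 genes in the table: Lta, Ltb and Tnf, which lie side by side on chromosome 17, and the receptor genes Ltbr, Tnfrsf1a and Tnfrsf1b. They were taken by symbol, and all 6 were present and passed the filter on low counts. The set was chosen on the fold changes of ICOS KO over WT in these libraries, so the values of its members are given as a description, with no test.

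The 3 ICOS KO libraries came from mice that the labels name C.129S4-Icostm1Shr/J, whose Icos gene, which encodes the inducible T cell co-stimulator, carries a targeted allele. The 3 WT libraries came from mice labelled BALB/C BYJ. ILC2s of both genotypes were sorted from the lung and cultured before RNA was taken, with stimuli and age of the mice not given in the sources used here. Because the strain names differ too, strain DNA and the loss of Icos cannot be told apart. Nothing in the labels says that replicates are different mice or cultures, so each p-value reflects only how far these libraries spread, and that spread may be technical.

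TNF and lymphotoxin alpha are secreted as trimers of identical chains, and both bind the receptors TNFR1 (gene Tnfrsf1a) and TNFR2 (gene Tnfrsf1b). Lymphotoxin beta is a membrane protein that pairs with lymphotoxin alpha, and the mixed trimer binds the lymphotoxin beta receptor (gene Ltbr). These receptors switch on the transcription factor NF-kB, and the lymphotoxin pathway is known for the building of lymph nodes and for the upkeep of lymphoid tissue. Lymphocytes are known sources of the ligands, while Ltbr is known from stromal and myeloid cells.

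Library totals ran from 13738062 to 15543034 estimated counts in ICOS KO and from 14976130 to 18736474 in WT libraries. Icos averaged 157 ± 15.6 CPM (estimated counts scaled to library size) in ICOS KO and 466 ± 33.9 CPM in WT libraries (SD, n = 3 each). The log2 fold change was -1.57 ± 0.10 (SE) with an edgeR adjusted p of 1.27e-05. Across 13691 tested genes, 451 passed an adjusted p of 0.05, of which 275 fell and 176 rose in ICOS KO libraries. The rises were 39% of these calls, against 28.2% when libraries were scaled by their totals alone and 58.8% after correction for transcript length and GC content. Calls numbered 1090 without ICOS KO replicate 1, and 193, 194 and 216 without WT replicate 1, WT replicate 2 and ICOS KO replicate 3. ICOS KO replicate 2 held the highest share of mitochondrial reads, 0.616%, and the highest level of the nuclear RNA Malat1, 1690 CPM. The other ICOS KO libraries held 0.329% and 0.492% mitochondrial reads with 811 and 1410 CPM of Malat1, and WT libraries held 0.263% to 0.422% with 610 to 996 CPM.

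The 3 ligand genes span 10.9 kb of chromosome 17 in GRCm38, the build that mm10 names. Ltb (ENSMUSG00000024399.5, chr17:35194439-35196320, plus strand) comes first, followed after 3060 bases by Tnf (ENSMUSG00000024401.14, chr17:35199381-35202007, minus strand). A further 1157 bases separate Tnf from Lta (ENSMUSG00000024402.5, chr17:35203165-35205351, minus strand). Bases upstream of each gene are shown because the 3 genes were lower together, and NF-kB and NFAT are textbook activators of this locus. Whether these factors had a part in the lower levels was not tested. The windows are chr17:35205352-35205601 for Lta and chr17:35202008-35202257 for Tnf, both on the minus strand, and chr17:35194257-35194438 on the plus strand for Ltb, from RefSeq on GRCm38.p6. The Lta and Tnf windows run up to the RefSeq start site. RefSeq starts Ltb later than GENCODE does, and the Ltb window stops before the GENCODE gene, so the 68 bases directly before the RefSeq start are not in it. Capitals mark matches to the NF-kB motif (GGG and CC with any 5 bases between them) or GGAAA (the core of the NFAT motif) on either strand, and to TATAAA (the TATA box) on the strand of the gene.
Lta: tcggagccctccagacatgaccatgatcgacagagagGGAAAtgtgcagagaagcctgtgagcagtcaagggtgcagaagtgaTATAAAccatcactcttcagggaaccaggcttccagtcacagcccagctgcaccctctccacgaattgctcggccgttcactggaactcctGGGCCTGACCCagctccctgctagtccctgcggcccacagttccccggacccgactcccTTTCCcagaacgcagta
Tnf: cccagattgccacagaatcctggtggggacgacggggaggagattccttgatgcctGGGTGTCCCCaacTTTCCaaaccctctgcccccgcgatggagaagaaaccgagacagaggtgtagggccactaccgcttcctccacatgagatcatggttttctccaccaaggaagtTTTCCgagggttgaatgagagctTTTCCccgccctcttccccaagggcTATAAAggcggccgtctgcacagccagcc
Ltb: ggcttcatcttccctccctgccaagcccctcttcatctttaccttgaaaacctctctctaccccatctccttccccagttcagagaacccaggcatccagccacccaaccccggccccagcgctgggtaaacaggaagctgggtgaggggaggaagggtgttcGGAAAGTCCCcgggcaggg

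The Lta window held 2 matches to the NF-kB motif, 1 on each strand and overlapping each other, and 2 to GGAAA. The Tnf window held 1 and 3. Its NF-kB match reads as the motif on both strands over the same bases, and was counted as 1. The Ltb window held 1 match to the NF-kB motif and 1 to GGAAA, and there the matches overlap. TATAAA stood once in the Lta window and once in the Tnf window. The Ltb window held no TATAAA, but it leaves out the bases next to the RefSeq start, so it is not comparable in this. TGANTCA, the AP-1 motif, was searched on both strands and matched none of the 3 windows. Of 32851 promoter windows of 250 bases, 45.8% held the NF-kB motif, 55.6% GGAAA, 6.75% TGANTCA and 7.59% TATAAA. In the 182 bases of each window that lie farthest upstream, as in that of Ltb, the shares were 33.6%, 45.8%, 4.96% and 4.6%. The matches are a description of letters and show no binding.

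The 3′ ends of the messages set Tnf and Lta apart from Ltb. AU-rich elements in the 3′ UTR are where proteins such as tristetraprolin (gene Zfp36) bind Tnf RNA and speed its decay. The stretch with the most repeats in Tnf lies at chr17:35199679-35199708, and that in Lta at chr17:35203408-35203437, both on the minus strand of GRCm38 with gene models of GENCODE M21. Capitals mark ATTTA in the DNA letters of the message.
Tnf AU-rich stretch: attATTTAttATTTATTTAttATTTATTTA
Lta AU-rich stretch: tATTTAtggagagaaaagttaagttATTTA

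The whole 3′ UTR of Tnf, 764 bases long, held ATTTA 8 times and the longer form TTATTTATT 5 times. That of Lta, 572 bases, held them 3 times and 1 time, and that of Ltb, 174 bases, held neither. TTATTTATT was present in 7.66% of 21020 genes with a 3′ UTR, and in 4.1%, 3.38% and 1.54% of genes with a 3′ UTR about as long as that of Tnf, Lta and Ltb. No 3′ UTR of the 3 receptor genes held TTATTTATT. The 3′ UTR of Csf2, the gene of the growth factor GM-CSF described below, held ATTTA 9 times and TTATTTATT 4 times within 317 bases.

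All 3 ligand genes were lower in ICOS KO than in WT libraries, by 2.50-fold to 3.57-fold, with no overlap between the genotypes. The 3 receptor genes stood closer together, with log2 fold changes between -0.42 and -0.06. Of the 6 members, 3 passed the threshold as lower and 0 as higher, beside 2.01% of all tested genes that passed it as lower and 1.29% as higher. In 4 of the 6 every ICOS KO library lay below every WT library, which held for 12.5% of tested genes, or 24.4% counting both directions. Nothing is read from these counts, because the set was chosen with this contrast known. In bulk samples, fewer cells of a type and less RNA per cell cannot be told apart.

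Lta, the gene of the secreted ligand lymphotoxin alpha, had 49.6, 54.0 and 59.6 CPM in ICOS KO libraries, against 202, 192 and 188 CPM in WT libraries. The lowest WT library stood more than 3 times above the highest ICOS KO library, and the groups did not overlap. The group levels were 54.4 ± 5.01 CPM in ICOS KO and 194 ± 7.14 CPM in WT libraries (SD, n = 3 each), or -1.84 ± 0.11 (SE) as log2 fold change. These levels rest on 718 to 803 reads per ICOS KO library and 2875 to 3858 per WT library. From the lowest log2 fold change upwards, Lta ranked 122 of the 13691 tested genes and 57 of the 275 that fell.

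Ltb, whose protein anchors lymphotoxin alpha at the cell surface, had 42.8, 61.9 and 48.9 CPM in ICOS KO libraries, against 139.9, 140.3 and 104 CPM in WT libraries. WT replicate 3 stood below the other WT libraries and ICOS KO replicate 2 above the other ICOS KO libraries, and the groups did not overlap. The levels averaged 51.2 ± 9.77 CPM in ICOS KO and 128 ± 20.8 CPM in WT libraries (SD, n = 3 each). The log2 fold change was -1.32 ± 0.16 (SE), and without ICOS KO replicate 2 it was -1.48. Read counts were 659 to 824 in ICOS KO and 1588 to 2668 in WT libraries.

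Tnf, whose product is the founding cytokine of the family, had 7.94, 6.69 and 9.5 CPM in ICOS KO libraries, against 22.9, 22.3 and 18.8 CPM in WT libraries. All ICOS KO libraries lay below all WT libraries, and ICOS KO replicate 2 was the lowest, whereas it was the highest of its genotype for Ltb. The averages were 8.05 ± 1.41 CPM in ICOS KO and 21.3 ± 2.19 CPM in WT libraries (SD, n = 3 each), or -1.41 ± 0.19 (SE) as log2 fold change. Only 89 to 128 reads per ICOS KO library and 287 to 436 per WT library stood behind these levels. Counting error alone was 8.84% to 10.6% of the level in ICOS KO and 4.79% to 5.90% in WT libraries. Tnf ranked 232 and Ltb 265 from the lowest log2 fold change, or 83 and 93 among the 275 genes that fell.

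Tnfrsf1b, which encodes TNFR2, the TNF receptor typical of lymphocytes, was the receptor gene with the highest level, per length as well as in CPM. It had 223, 178 and 157 CPM in ICOS KO libraries, against 203, 200.1 and 180.2 CPM in WT libraries. The genotypes overlapped, and the ICOS KO libraries held both the highest and the lowest value. The averages were 186 ± 33.9 CPM in ICOS KO and 194 ± 12.5 CPM in WT libraries (SD, n = 3 each), with a log2 fold change of -0.06 ± 0.13 (SE). This fold change turned to 0.04 without ICOS KO replicate 3, and to 0.11 after the correction for transcript length and GC content. The gene lies on chromosome 4 (ENSMUSG00000028599.10, chr4:145213463-145246870, minus strand).

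Ltbr and Tnfrsf1a lie 35.5 kb apart on chromosome 6, at chr6:125306571-125313885 on the minus strand (ENSMUSG00000030339.7) and chr6:125349362-125362484 on the plus strand (ENSMUSG00000030341.17). Ltbr, the receptor gene for the membrane-bound lymphotoxin trimer, had 2.65, 2.18 and 2.38 CPM in ICOS KO libraries, against 3.57, 3.05 and 3.02 CPM in WT libraries. The genotypes did not overlap, but the gap rests on 29 to 41 reads in ICOS KO and 46 to 68 in WT libraries, a counting error of 15.6% to 18.6% and 12.1% to 14.7% of the level. The averages were 2.40 ± 0.235 CPM in ICOS KO and 3.21 ± 0.308 CPM in WT libraries (SD, n = 3 each), or -0.42 ± 0.34 (SE) as log2 fold change.

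Tnfrsf1a, which encodes the death-domain receptor TNFR1, had 3.16, 2.63 and 2.60 CPM in ICOS KO libraries, against 3.83, 3.58 and 2.56 CPM in WT libraries. WT replicate 3 lay below every ICOS KO library and the other WT libraries lay above them, so the genotypes overlapped. The averages were 2.80 ± 0.318 CPM in ICOS KO and 3.32 ± 0.673 CPM in WT libraries (SD, n = 3 each), or -0.25 ± 0.34 (SE) as log2 fold change. These levels rest on 35 to 49 reads in ICOS KO and 39 to 73 in WT libraries. The plot of the members by library shows the separated ligand genes beside the receptor genes.

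**Figure D1:**
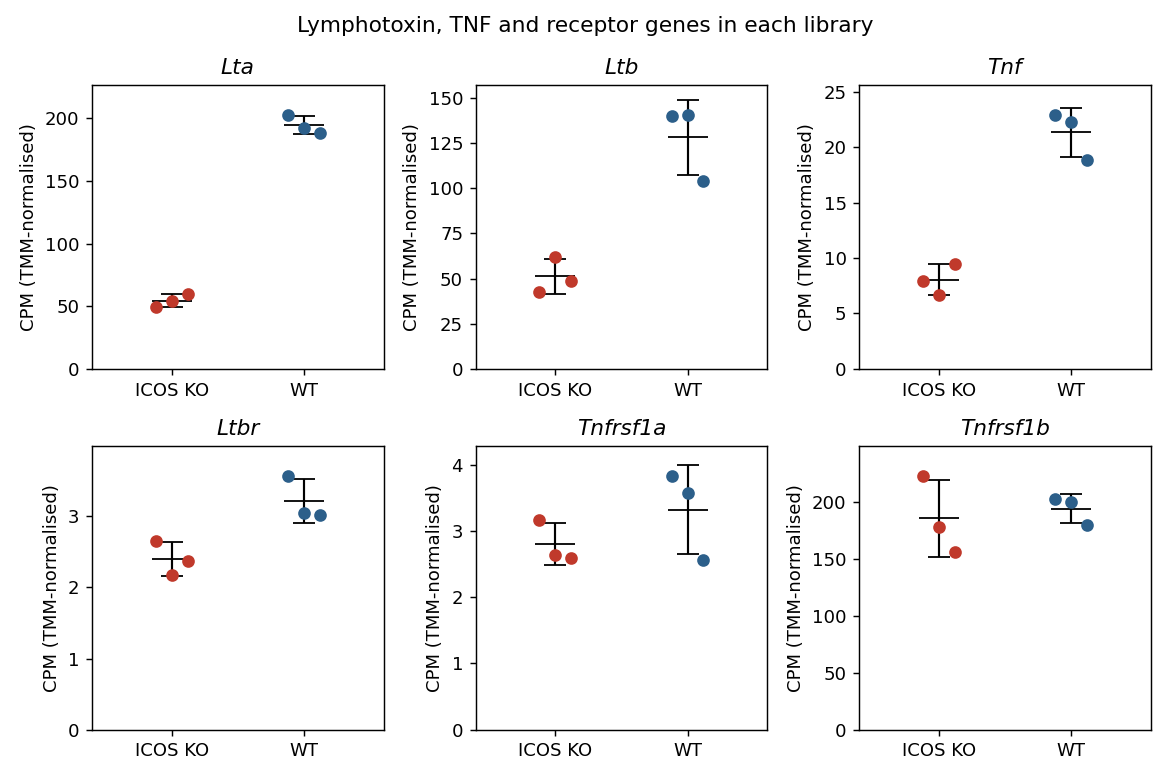
TMM-normalised CPM of the 6 genes in each of 3 ICOS KO and 3 WT libraries, with 1 panel and a linear axis from 0 per gene; points are libraries and the bar with its error is the mean ± SD. Lta lies at 49.6 to 59.6 CPM in ICOS KO and 188 to 202 CPM in WT libraries, while Tnfrsf1b overlaps between the genotypes.

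Fold changes of the 3 ligand genes kept their sign and stayed past the threshold in each of 15 other settings, and the receptor genes stayed short of it in every setting in which they were tested. Leaving out 1 library moved the log2 fold change of Lta between -1.91 and -1.77, that of Ltb between -1.48 and -1.21, and that of Tnf between -1.54 and -1.29. Other scalings, filters and tests gave -1.92 to -1.81 for Lta, -1.41 to -1.30 for Ltb and -1.47 to -1.38 for Tnf. These settings reuse the libraries that chose the members and are no independent support.

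**Figure D2:**
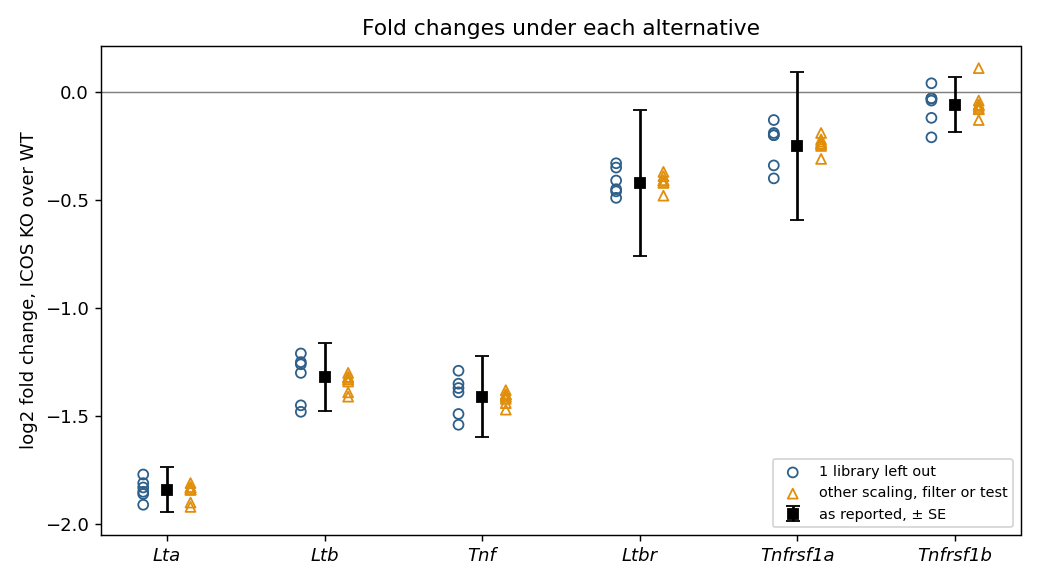
log2 fold change of ICOS KO over WT for each of the 6 genes; black squares are the reported values ± SE, blue circles the values with 1 library left out and orange triangles those under another scaling, filter or test. Lta stays between -1.92 and -1.77, and the points of Tnfrsf1b fall on both sides of 0.

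Levels of different genes were compared as CPM per kb of exon, which divides out the length of the message. In ICOS KO libraries the order was Tnfrsf1b (48.7 ± 8.88 CPM per kb), Lta (39.3 ± 3.63), Ltb (33.8 ± 6.44), Tnf (4.91 ± 0.859), Tnfrsf1a (1.08 ± 0.123) and Ltbr (1.02 ± 0.0999). The ranges of Tnfrsf1b (41.0 to 58.4), Lta (35.9 to 43.1) and Ltb (28.3 to 40.9) overlapped from neighbour to neighbour, as did those of Tnfrsf1a and Ltbr. In WT libraries the order was Lta (141 ± 5.16 CPM per kb), Ltb (84.5 ± 13.7), Tnfrsf1b (50.9 ± 3.28), Tnf (13 ± 1.34), Ltbr (1.36 ± 0.131) and Tnfrsf1a (1.28 ± 0.260), all SD with n = 3. There only Ltbr and Tnfrsf1a overlapped, and with the longest transcript as length their WT order turned. Lta thus led the set in WT libraries, and in ICOS KO libraries it shared its range with Tnfrsf1b.

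Against all 13388 genes ranked per kb, Lta stood above 87.1% of genes in ICOS KO and above 96.8% in WT libraries. Ltb stood above 85.4% in ICOS KO and 94.2% in WT, and Tnf above 50.1% in ICOS KO and 70.8% in WT. Tnfrsf1b stood above 89.3% in ICOS KO and 90.3% in WT libraries. Ltbr stood above 21% in ICOS KO and 24.7% in WT, and Tnfrsf1a above 21.9% in ICOS KO and 23.7% in WT. Lta and Ltb RNA was therefore still among the more abundant messages of the ICOS KO libraries.

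**Figure D3:**
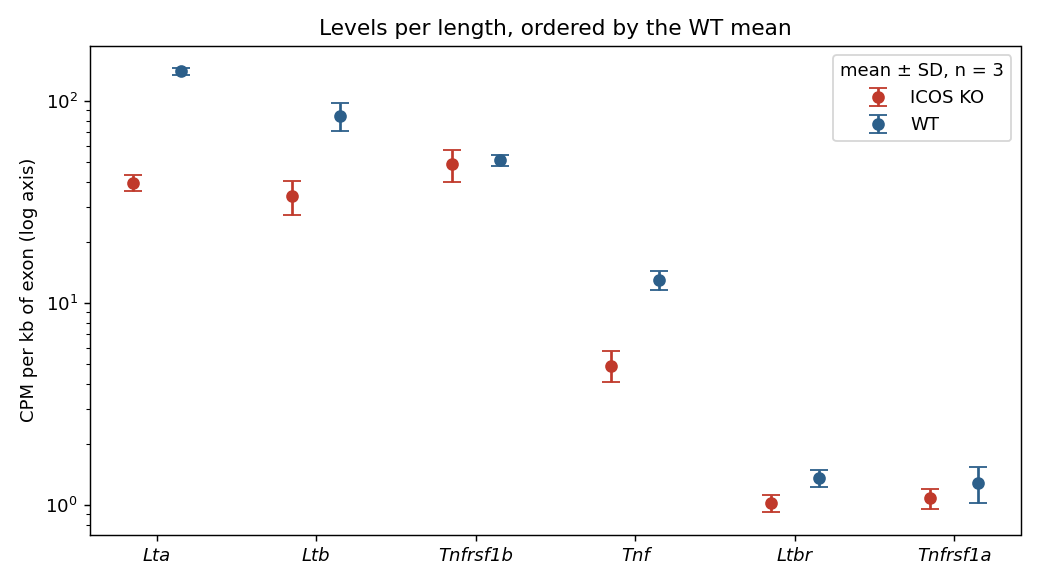
Mean CPM per kb of exon ± SD (n = 3) of the 6 genes in ICOS KO and WT libraries, on a log axis and ordered by the WT mean. Lta and Ltb lie apart between the genotypes, at 39.3 and 33.8 in ICOS KO and 141 and 84.5 in WT libraries, while Tnfrsf1b lies at 48.7 in ICOS KO and 50.9 in WT libraries.

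Ratios of levels per kb within a library do not depend on how libraries are scaled. Lta exceeded Tnf 7.40, 9.56 and 7.43 times in ICOS KO libraries, against 10.5, 10.2 and 11.9 times in WT libraries. Lta exceeded Ltb 1.27, 0.955 and 1.34 times in ICOS KO libraries, against 1.59, 1.5 and 1.98 times in WT libraries. Both ratios were lower in every ICOS KO library than in any WT library, and in ICOS KO replicate 2 Ltb exceeded Lta. These ratios come from the contrast that chose the genes and carry no test.

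Ltb exceeded Tnf 5.83, 10.0 and 5.57 times in ICOS KO libraries, against 6.62, 6.80 and 5.98 times in WT libraries, with overlap. Of the summed level per kb of the 3 ligand genes, Lta made up 52.0%, 46.5% and 53.1% in ICOS KO libraries, against 57.9%, 56.7% and 63% in WT libraries. Tnf made up 7.03%, 4.86% and 7.14% in ICOS KO libraries, against 5.52%, 5.55% and 5.30% in WT libraries, again with overlap. On the receptor side, Tnfrsf1b exceeded Tnfrsf1a 47.8, 46.0 and 40.9 times in ICOS KO libraries, against 36, 38.0 and 47.8 times in WT libraries. Per kb, the message of TNFR2 was the more abundant of the TNF receptor messages in all 6 libraries.

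Around the ligand genes lies the class III region of the major histocompatibility complex, one of the most gene-dense stretches of the genome. Within 250 kb on either side of the 3 genes, 61 further genes were annotated, 40 were in the table and 31 were tested. Of these, 1 rose and 1 fell, beside 1.29% of all tested genes that rose and 2.01% that fell. Their median log2 fold change was 0.10, beside 0.00 over all tested genes. H2-Q7, a class I gene, had 63.7, 81.6 and 79.6 CPM in ICOS KO libraries, against 25.8, 23.7 and 37.1 CPM in WT libraries (log2 fold change 1.38 ± 0.17, edgeR adjusted p 0.0012). H2-Q6, a near-identical neighbour, averaged 83.4 ± 3.55 CPM in ICOS KO and 136 ± 13.8 CPM in WT libraries (log2 fold change -0.70 ± 0.11, edgeR adjusted p 0.00379). Class I copies share reads and differ between strains, so the values of both are uncertain.

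Genes next to the ligand genes did not pass the test. Nfkbil1, which lies beside Lta, averaged 24.6 ± 2.56 CPM in ICOS KO and 25.3 ± 1.48 CPM in WT libraries. Lst1, a leukocyte gene beside Ltb, averaged 2.93 ± 0.447 CPM in ICOS KO and 3.54 ± 0.715 CPM in WT libraries. Ddx39b, an RNA helicase gene, averaged 199.5 ± 3.64 CPM in ICOS KO and 199.6 ± 6.57 CPM in WT libraries (SD, n = 3 each). Ly6g5b had the lowest log2 fold change of the neighbours, -1.37 ± 0.38, and did not pass (edgeR adjusted p 0.0837). The map of fold change by distance from Tnf shows the ligand genes below the genes immediately on either side.

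**Figure D4:**
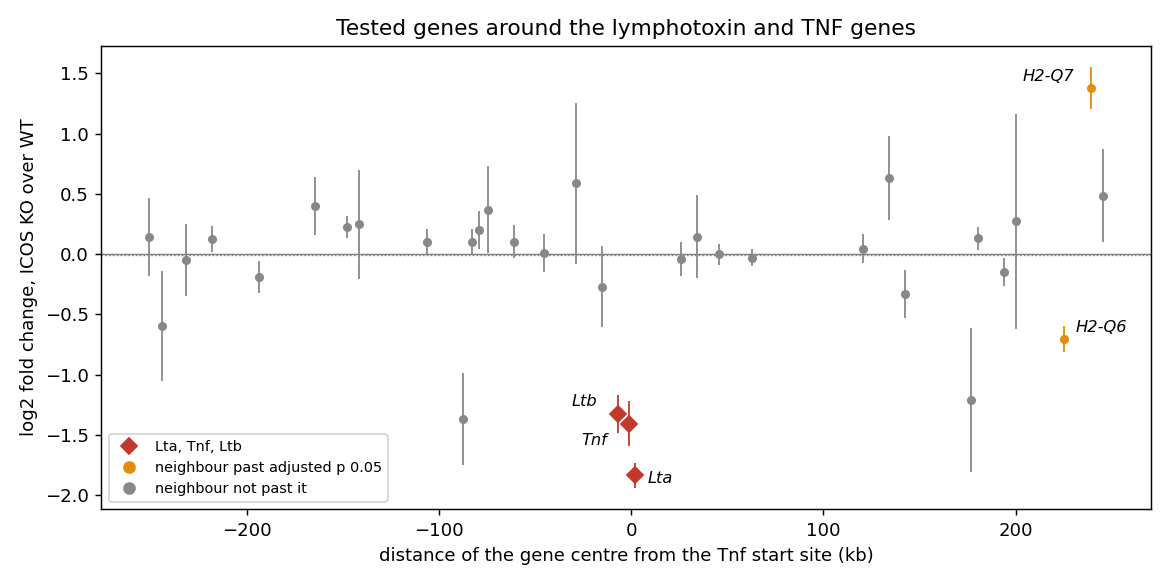
log2 fold change of ICOS KO over WT against the distance of each gene's centre from the Tnf start site in kb, for Lta, Tnf, Ltb and the 31 tested neighbours within 250 kb; colour marks neighbours past an edgeR adjusted p of 0.05. The ligand genes lie between -1.84 and -1.32, and most neighbours lie near 0.

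The genes that carry the receptor signal were taken as 31 adaptors, kinases and ubiquitin editors, of which 1 fell and 0 rose, with a median log2 fold change of -0.15. Of all tested genes, 2.01% passed as lower and 1.29% as higher, which is the background for the lists described next too. By an unadjusted p of 0.05, 6 of the 31 passed, or 19.4%, beside 19.9% of all tested genes. In the lists described next, 3 of 11, 5 of 20, 5 of 15, 4 of 9 and 6 of 15 passed it, in the order of the text, as did 4 of the 31 neighbours. The receptor signalling gene that fell was Tnfaip3, which encodes the feedback inhibitor A20. It had 11.9, 8.72 and 11.1 CPM in ICOS KO libraries, against 20.3, 16.0 and 18.4 CPM in WT libraries. Its log2 fold change was -0.78 ± 0.19 with an edgeR adjusted p of 0.0461, and the call was lost in 9 of 15 other settings, up to an adjusted p of 0.211. Among them was the loss of any 1 library other than ICOS KO replicate 1. Traf2, the adaptor of TNFR2, averaged 90.9 ± 4.64 CPM in ICOS KO and 100.4 ± 12.8 CPM in WT libraries and did not pass.

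Of 11 NF-kB subunit and inhibitor genes, 1 fell and 1 rose, with a median log2 fold change of -0.07. Nfkb2, the subunit processed downstream of the lymphotoxin beta receptor, had 62.7, 47.5 and 51.9 CPM in ICOS KO libraries, against 103, 87.7 and 76.8 CPM in WT libraries. Every ICOS KO library was below every WT library (log2 fold change -0.72 ± 0.14, edgeR adjusted p 0.0169). Without WT replicate 1, WT replicate 2, ICOS KO replicate 2 or ICOS KO replicate 3 the call was lost, up to an adjusted p of 0.102. Bcl3, an atypical inhibitor that acts in the nucleus, rose to 280 ± 10.4 CPM in ICOS KO, against 210.5 ± 6.89 CPM in WT libraries (log2 fold change 0.41 ± 0.09, edgeR adjusted p 0.0259). Its call was lost in 5 of 15 settings, up to an adjusted p of 0.162: with libraries scaled by their totals alone, and without ICOS KO replicate 3 or any 1 WT replicate. Rela averaged 117 ± 12.1 CPM in ICOS KO and 139.5 ± 11.5 CPM in WT libraries, and Nfkb1 396 ± 26.8 CPM in ICOS KO and 374 ± 9.14 CPM in WT libraries, and neither passed.

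Genes that shed TNF from the membrane or control the decay of its RNA numbered 20, of which 1 rose and 1 fell, with a median log2 fold change of -0.19. Zfp36, whose protein tristetraprolin binds AU-rich elements such as that of Tnf printed above, had 76.6, 77.5 and 71.3 CPM in ICOS KO libraries, against 47.4, 52.6 and 48.0 CPM in WT libraries. It rose by a log2 fold change of 0.61 ± 0.11 with an edgeR adjusted p of 0.0102. This passed 0.05 in all but 1 of 15 settings (0.0721 without WT replicate 1). Log2 fold changes were -1.41 for Tnf, -1.84 for Lta and -1.32 for Ltb, whose 3′ UTR held no ATTTA. Whether Zfp36 had a part in the levels of these genes or of Csf2 was not tested. Litaf, named for a role in Tnf transcription in macrophages, fell to 54.3 ± 5.38 CPM in ICOS KO, against 86.5 ± 7.84 CPM in WT libraries (log2 fold change -0.67 ± 0.12, edgeR adjusted p 0.0102). Without WT replicate 1 or WT replicate 2 its call was lost, up to an adjusted p of 0.0709. Adam17, the protease that frees TNF from the membrane, averaged 78.1 ± 18.2 CPM in ICOS KO and 105 ± 12.9 CPM in WT libraries and did not pass (edgeR adjusted p 0.167).

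Transcription factors tied to activation of the locus fell in 2 of 15 cases and rose in 0, with a median log2 fold change of -0.23. Egr1, an early response gene, had 44.8, 41.6 and 47.7 CPM in ICOS KO libraries, against 80.6, 65 and 56.3 CPM in WT libraries (log2 fold change -0.59 ± 0.14, edgeR adjusted p 0.0472). Its call was lost in 8 of 15 settings, up to an adjusted p of 0.237, among them the loss of any 1 library other than WT replicate 3. Tbx21, the T-bet gene of type 1 lymphocytes, had 6, 0 and 2 reads in ICOS KO libraries, against 54, 43 and 17 in WT libraries (edgeR adjusted p 0.0375), and its call was lost without ICOS KO replicate 2, ICOS KO replicate 3 or any 1 WT replicate, and with no filter on low counts. NFAT genes Nfatc1, Nfatc2 and Nfatc3 did not pass, with log2 fold changes of -0.23, -0.23 and -0.32.

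Among 9 tested genes of other TNF family ligands and the receptor gene Tnfrsf14, 2 fell and 0 rose, with a median log2 fold change of -0.41. Tnfsf4, which encodes OX40L, a co-stimulatory ligand for T cells, had 12.4, 6.92 and 10.8 CPM in ICOS KO libraries, against 35.4, 31.1 and 30.6 CPM in WT libraries. The gap was a log2 fold change of -1.69 ± 0.20 with an edgeR adjusted p of 0.000889, and it passed in all 15 other settings. Cd70, the ligand of CD27, had 1, 0 and 3 reads in ICOS KO libraries, against 38, 19 and 21 in WT libraries (edgeR adjusted p 0.0276), and lost its call when any single library was left out. Tnfsf14, which encodes LIGHT, the other ligand of the lymphotoxin beta receptor, averaged 41.1 ± 7.38 CPM in ICOS KO and 43.1 ± 3.89 CPM in WT libraries and did not pass (edgeR adjusted p 0.831). Whether its fold change differed from that of Ltb was not tested.

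Of 15 tested genes known to be induced by TNF or lymphotoxin, 4 fell and 0 rose, with a median log2 fold change of -0.32. Of all tested genes, 2.01% fell and 1.29% rose. The list was chosen with earlier results of these data known, so nothing is read from its count, and an effect of the ligands was not tested. Csf2, which encodes the growth factor GM-CSF, had 146, 166 and 147 CPM in ICOS KO libraries, against 499.7, 523 and 513 CPM in WT libraries (log2 fold change -1.74 ± 0.09, edgeR adjusted p 3.57e-06). Ccl3, a chemokine gene, had 7.49, 6.69 and 9.20 CPM in ICOS KO libraries, against 17.4, 17.1 and 14.8 CPM in WT libraries (log2 fold change -1.08 ± 0.19, edgeR adjusted p 0.0105). Ccl4, its neighbour and close relative, averaged 6.54 ± 1.87 CPM in ICOS KO and 13.6 ± 1.83 CPM in WT libraries (log2 fold change -1.06 ± 0.24, edgeR adjusted p 0.0382).

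Tnfaip8, an inhibitor of apoptosis, fell to 92.9 ± 6.39 CPM in ICOS KO, against 129.9 ± 2.95 CPM in WT libraries (log2 fold change -0.48 ± 0.10, edgeR adjusted p 0.0203). The Csf2 call held in all 15 other settings, while those of Ccl3, Ccl4 and Tnfaip8 were lost in 2, 4 and 6 of 15. All 3 were lost without WT replicate 1 or WT replicate 2, Ccl4 and Tnfaip8 also without WT replicate 3 or ICOS KO replicate 2, and Tnfaip8 also without ICOS KO replicate 3 and after the length and GC correction. Without WT replicate 1 or WT replicate 2 the count of the list was 1. Icam1, an adhesion gene and a standard readout of TNF, averaged 79.7 ± 4.84 CPM in ICOS KO and 89.0 ± 10.3 CPM in WT libraries and did not pass. The same was true of Nfkbia, which averaged 188 ± 10.6 CPM in ICOS KO and 198 ± 1.64 CPM in WT libraries.

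**Figure D5:**
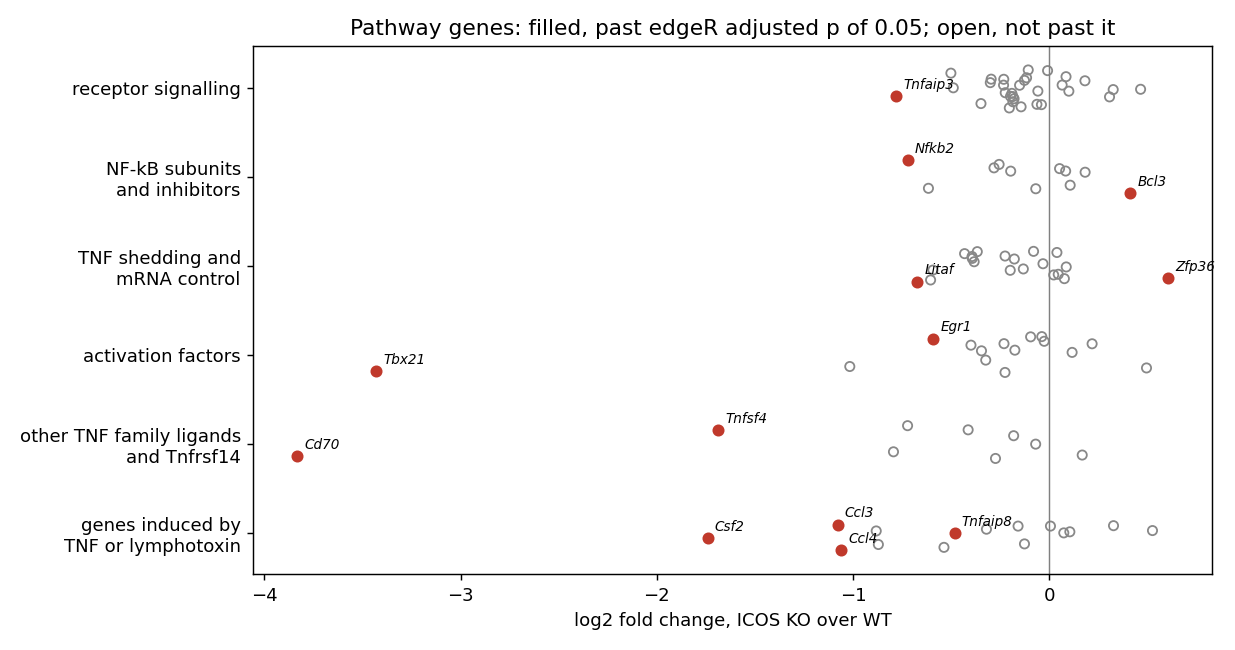
log2 fold change of ICOS KO over WT for every tested gene of the 6 lists, with 1 list per line; filled points passed an edgeR adjusted p of 0.05 and open points did not. Most genes of receptor signalling and NF-kB lie near 0, and the lowest filled points among the induced genes and the other ligands are Csf2 at -1.74 and Cd70.

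Genes whose profile over the 6 libraries was most like that of a ligand gene were ranked by the root mean square difference in centred log2 CPM among 9274 genes with a mean of at least 5 CPM. Closest to Lta was Csf2, at 0.12, followed by Btbd9 at 0.13 and Rfwd3, a ubiquitin ligase gene of DNA repair, at 0.14. Tnf was 7th in likeness to Lta, at 0.25, and Ltb 23rd, at 0.32. Closest to Tnf were Ccdc184 at 0.07 and Arnt2 and Arhgef10l at 0.14 each. Lta was 33rd and Ltb 52nd in likeness to Tnf. Closest to Ltb were Gprasp2 at 0.12, the detoxifying enzyme gene Glo1 at 0.18 and Cd36, a fatty acid receptor gene, at 0.19. By this measure, adjacent genes were not each other's nearest profiles. The measure includes the gap between genotypes on which the set was chosen, so the ranks are a description. Whether adjacent genes share their control was not tested.

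Btbd9 averaged 27.6 ± 2.93 CPM in ICOS KO and 102 ± 10.3 CPM in WT libraries, and Glo1 241 ± 13.8 CPM in ICOS KO and 611 ± 9.11 CPM in WT libraries (SD, n = 3 each). Both lie on chromosome 17, 4.62 and 4.57 Mb before Ltb. Between Glo1 and Ltb 8 of 109 tested genes passed the threshold, or 7.34%, beside 35 of 670 on the chromosome, or 5.22%, and 3.29% of all tested genes. This interval was chosen after its values were seen. The targeted allele lies on chromosome 1, and which stretches of chromosome 17 differ between the strains was not analysed here.

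Defining genes of ILC2s were present in both genotypes. Of 12 ILC2 markers, 4 rose and 2 fell, namely Rora and Icos. Of all tested genes, 1.29% rose and 2.01% fell, which is the background for the other marker lists too. Areg, the gene of the growth factor amphiregulin, averaged 257 ± 14.8 CPM in ICOS KO and 96.7 ± 10.6 CPM in WT libraries, and Klrg1 557 ± 49.4 CPM in ICOS KO and 240.3 ± 19.4 CPM in WT libraries. The summed level was 10500 to 11200 CPM in ICOS KO and 10200 to 11300 CPM in WT libraries, with Il5 alone at 6049 CPM in ICOS KO and 6460 CPM in WT libraries. Gata3 averaged 753 ± 53.1 CPM in ICOS KO and 868 ± 51.0 CPM in WT libraries. Lymphoid tissue inducer cells, the innate lymphocytes best known for lymphotoxin, were looked for by 8 markers of which 7 were in the table. Their summed level was 49.7 to 80.1 CPM in ICOS KO and 27.9 to 40.8 CPM in WT libraries, most of it Il22.

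Most tested markers of mast cells and basophils were also lower in ICOS KO libraries. Of 12 listed, 11 were in the table and 9 were tested, and 7 fell, beside 2.01% of all tested genes. Their summed level was 60.9 to 72.1 CPM in ICOS KO and 356 to 409 CPM in WT libraries, with no marker at 0 in all libraries. The protease gene Tpsab1 averaged 29.7 ± 7.55 CPM in ICOS KO and 249 ± 27.0 CPM in WT libraries, and Cpa3 1.46 ± 1.04 CPM in ICOS KO and 27.6 ± 3.48 CPM in WT libraries. Kit, the receptor that mast cells need, averaged 20.2 ± 2.86 CPM in ICOS KO and 20.2 ± 1.40 CPM in WT libraries and did not pass.

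Summed markers of macrophages and monocytes were 67.8 to 111 CPM in ICOS KO and 117 to 171 CPM in WT libraries, with 1 of 6 tested genes falling. Those of natural killer cells and ILC1s were 429 to 693 CPM in ICOS KO and 142 to 189 CPM in WT libraries, mostly from the granzyme gene Gzma, which rose. Ncr1, a receptor gene of the same cells, fell, with 0, 0 and 1 reads in ICOS KO libraries, against 27, 23 and 25 in WT libraries (edgeR adjusted p 0.00713). Those of T cells were 372 to 478 CPM in ICOS KO and 255 to 310 CPM in WT libraries, and of 7 tested markers 2 rose and 1 fell. Most of the sum came from the 2 that rose, the receptor beta constant genes Trbc1 and Trbc2. They averaged 123 and 230.5 CPM in ICOS KO, against 59.0 and 151.9 CPM in WT libraries. Cd3e fell, averaging 2.30 ± 1.34 CPM in ICOS KO and 8.87 ± 1.41 CPM in WT libraries. Trac, the alpha constant gene, averaged 0.579 CPM in ICOS KO and 0.988 CPM in WT libraries and did not pass. Those of B cells were 29.7 to 45.8 CPM in ICOS KO and 25.2 to 26.3 CPM in WT libraries. The part of these cells in the levels of Lta, Ltb and Tnf was not tested.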

How the data were processed

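RNA was measured in 6 libraries of cultured lung ILC2s made with a low-input SMARTer kit, which amplifies cDNA by PCR, per the labels' protocols. No molecular identifiers are named, so counting errors and floors cover counting error only. The table that the authors deposited holds estimated counts, and 39% of its values were not whole (tolerance 1e-09). STAR 2.7.8, Partek 10.0, DESeq2 and the build mm10 are named in the submitters' processing notes; annotation, counting and strand were not given in the sources used here. Duplicates are mentioned in the design text, but each genotype had 3 libraries. The genotype column of the table matched the labels for 6 of 6.

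The estimated counts were rounded, filtered with filterByExpr and entered into edgeR 4.0.16 (R 4.3.3, with limma 3.58.1) for its quasi-likelihood test, with TMM factors, no covariates and Benjamini-Hochberg adjustment over 13691 genes at a threshold of 0.05. SE are those implied by the F statistic. Library pairs differed by a chi-square of at least 8.85 per degree of freedom, so no library was counted once for 2. The fit was tested on simulated counts. Levels per kb divide CPM by the merged exon length of GENCODE M21, and promoters come from RefSeq.

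The members and all lists were chosen with earlier results of these data known. Named genes were Icos, up to 4 passing genes per list by smallest p, the passing neighbours, and the 3 nearest profiles of each ligand gene. Other genes were named for their role after their values were seen. Alternatives were other scalings and filters, DESeq2 1.42.0, limma voom, a replicate block, each library left out, and a length and GC correction added after the data were seen. The result of 1 marker gene is not reported here.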

Additional observations from a re-analysis of the deposited data

How the results depend on the processing

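The 451 calls became 929 with DESeq2, 784 with a replicate block and 193 to 1090 with 1 library left out. Calls of lower genes became 514 with DESeq2 and 123 to 599 with 1 library left out, and calls of higher genes 415 with DESeq2, 374 with the block, 354 after the length and GC correction and 69 to 491 with 1 library left out. Same-numbered libraries deviated together only weakly, with correlations of 0.09, 0.08 and 0.06, all under 0.1, although each correlated best with its own number. With 3 libraries per genotype these values cannot settle whether the replicate numbers mark pairs or shared batches.

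For receptor signalling, the count of 1 became 0 with upper-quartile scaling, with no filter and with limma voom, 2 with library totals alone, 3 with DESeq2 and with the block, and 0 to 2 with 1 library left out. For NF-kB genes, 2 became 1 with library totals alone and 0 to 2 with 1 library left out. For shedding and mRNA control, 2 became 0 to 4 with 1 library left out. For activation factors, 2 became 0 with no filter, 1 with the filter of at least 5 CPM, 1 with limma voom, 4 with DESeq2 and 0 to 2 with 1 library left out. For the other ligands, 2 became 1 with the filter of at least 5 CPM and 1 with any library left out, and for induced genes 4 became 1 to 4. Without ICOS KO replicate 2, the lists gave 0, 1, 2, 0, 1 and 2 calls in this order. The 2 neighbours passed with any 1 library left out. With the longest transcript as length, Ltbr stood at 1.14 CPM per kb in ICOS KO and 1.52 in WT libraries, and Tnfrsf1a at 1.30 in ICOS KO and 1.54 in WT libraries, which turns their order in WT. The cause of these shifts was not tested. Few reads stand behind Ltbr and Tnfrsf1a, which the filter of at least 5 CPM removes, and the small number of libraries limits every SE.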
